A study of Mus musculus with 2 samples.

Results

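Mitotic cyclins, mitotic kinases and kinetochore genes, with the spindle, cytokinesis and chromosome condensation genes that act beside them, were followed in RNA from mouse macrophages. The 56 genes were taken from a list of names and were found in both libraries among 55536 annotated genes. The cells were primary macrophages derived from C57BL/6J bone marrow, and they received the ligand at 100 ng/ml for 30 min. That ligand is given as Lipid A, the lipid anchor of bacterial endotoxin, in the description and as lipoprotein A, a protein, in the source and treatment labels. Both libraries carry that same treatment, under the same donor record and separate biosample records, as biological replicates 1 and 2 of 1 group. No untreated macrophages were analysed here, so no level below can be set against a resting state. Sex and age were not collected, and the labels say neither how the marrow was cultured nor how many mice were pooled. A fold is replicate 1 over replicate 2 throughout, so it compares these libraries, not conditions, and has no replicate check.

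Cells enter mitosis when cyclin B binds the kinase CDK1 and CDC25 phosphatases remove its inhibitory phosphates. Aurora and Polo-like kinases then build the spindle, kinetochores tie chromosomes to its microtubules, and the spindle checkpoint holds anaphase back until all are attached. The ubiquitin ligase APC/C, activated by CDC20, then destroys cyclin B and securin, which frees separase to cut cohesin. Most of these genes are transcribed late in the cell cycle, under the DREAM and MuvB complexes with B-MYB and FOXM1, while cells at rest keep them silent. Macrophages grown from marrow divide under the growth factor CSF1 and slow down as they mature.

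The libraries held 37784941 expected counts over genes in replicate 1 and 51904470 in replicate 2, and the ribosomal RNA gene CT010467.1 took 10.9% of them in replicate 1 and 5.05% in replicate 2. All 9 macrophage markers (such as Lyz2 and Cd68) reached 1 TPM in each library, and together they came to 22261 TPM in replicate 1 and 28633 TPM in replicate 2. That sum is mostly Lyz2, at 15907 TPM in replicate 1 and 22127 TPM in replicate 2, and by scaled counts 6 of the 9 markers were higher in replicate 1. TPM is a relative abundance scaled for transcript length, and it sums to the same total in each library.

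The mitotic genes were present at low levels, and a few stood well above the rest. Together they took 0.0547% of counts in replicate 1 (95% Wilson interval 0.0539 to 0.0554) and 0.0407% in replicate 2 (0.0401 to 0.0412), where the intervals cover counting error only. The median gene had 4.50 TPM in replicate 1 and 1.565 TPM in replicate 2 (SD 2.08, n = 2). At 1 TPM or more in both libraries stood 39 of the 56, against 19.2% of all genes and 45.3% of protein-coding genes. Another 13 reached 1 TPM in replicate 1 only, none in replicate 2 only, and 4 (Cdc25c, Ttk, Cenpf and Knl1) in neither. Genes detected in both libraries had a median of 16.3 TPM, and 5 mitotic genes had a mean above it.

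Of the total level, with coding and other transcripts counted, 4 genes took 40.5% in replicate 1 and 56.2% in replicate 2. They were the centromeric histone Cenpa, the kinase Cdk1, the securin gene Pttg1 and the Aurora B scaffold Incenp. Without these 4 genes the others summed to 265 TPM in replicate 1 and 153 TPM in replicate 2. At 10 TPM or more in both libraries were also the midzone motor Kif23 and the condensin subunit Smc4. In protein-coding transcripts alone Kif23 was under that limit, at 7.94 TPM in replicate 1 and 8.95 TPM in replicate 2. The order of the 56 levels was similar between the libraries (Spearman rho 0.876, across genes that share their library, not independent points).

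**Figure D1:**
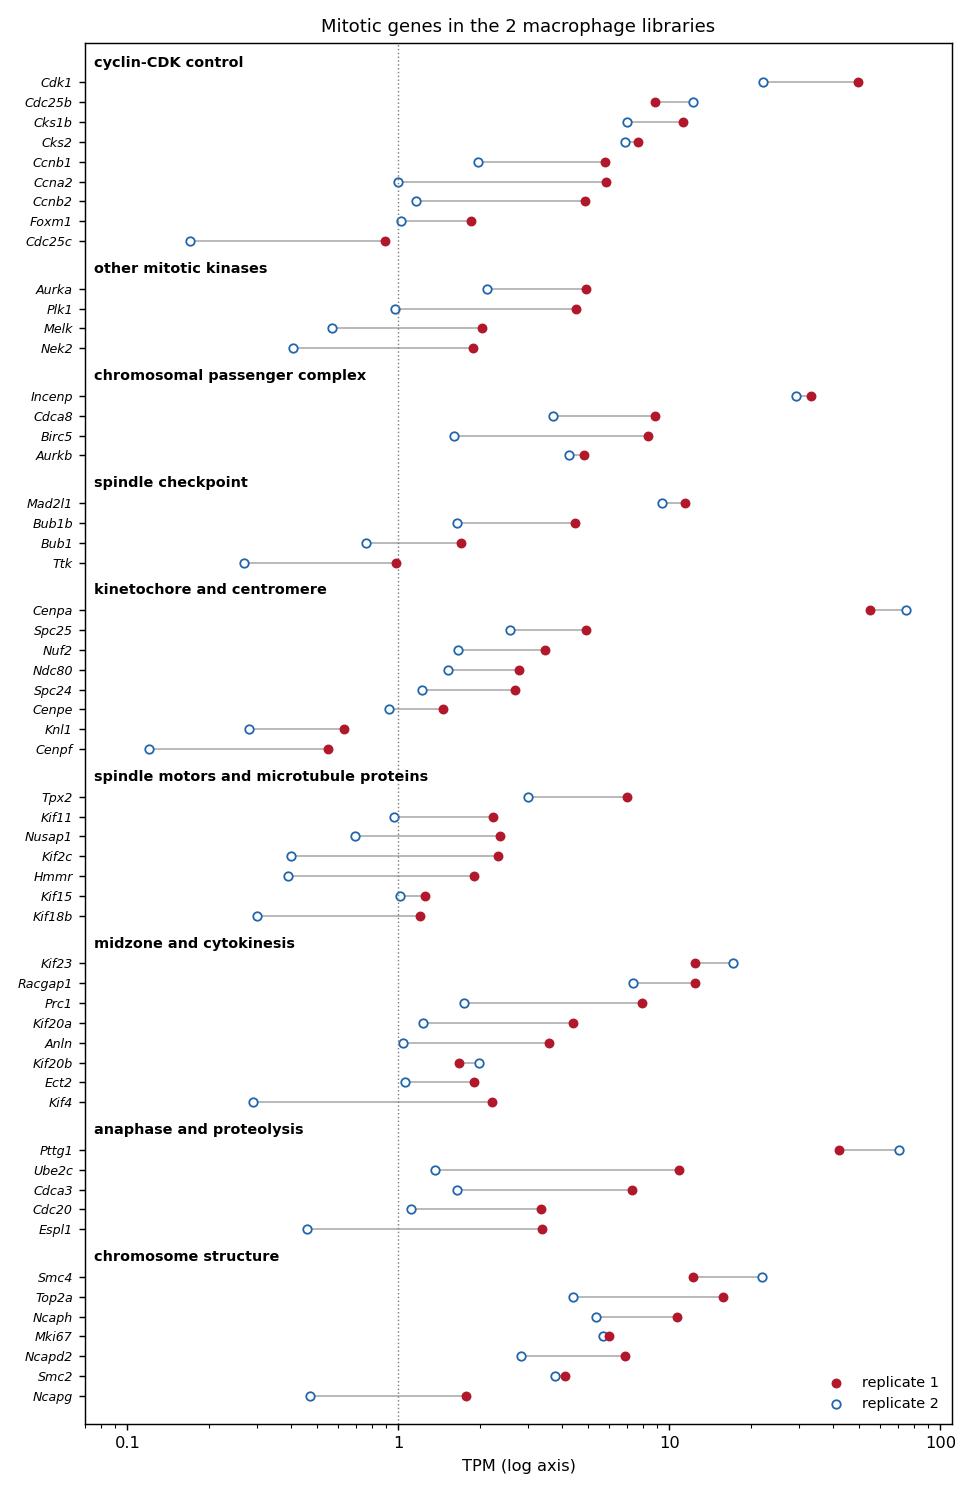
Level of each of the 56 mitotic genes in TPM on a log axis, grouped by role, with filled points for replicate 1, open points for replicate 2 and a dotted line at 1 TPM. The filled point lies to the right for 50 genes and to the left for 6, namely Cenpa, Pttg1, Smc4, Cdc25b, Kif23 and Kif20b.

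Most of the mitotic genes were higher in replicate 1. Of the 4 most abundant, Cdk1 was higher there, Incenp was not called, and Cenpa and Pttg1 were lower. After scaling of the counts by the trimmed mean of M values (TMM), 36 of the 55 genes that passed the filter on low counts were more than 2-fold higher in replicate 1. That is 65.5% of them, against 3.12% of all 12266 genes tested. None was more than 2-fold lower in replicate 1, against 5.09% of all genes. The median log2 ratio was 1.30 over the 55 genes and -0.0022 over all genes tested. The filter removed Cdc25c, which had 38 counts in replicate 1 and 10 in replicate 2. Just past the 2-fold line was Cdk1 at 2.07-fold, and just under it was the kinetochore gene Spc25 at 1.96-fold. A ratio of TPM + 1, which shrinks low genes, left 21 genes past 2-fold.

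Of all 383 genes past 2-fold in that direction, 9.40% were mitotic genes, and 21 of the 100 genes of largest ratio were. An exact binomial test on the reads, adjusted by Benjamini-Hochberg over all genes tested, called 46 mitotic genes higher in replicate 1, against 31.3% of all genes. It called 5 lower (Pttg1, Smc4, Cenpa, Cdc25b and Kif23), against 32.2% of all genes. Kif20b, Incenp, Aurkb and Cks2 were not called. At this depth the test also calls small differences, as the shares over all genes show. In bulk RNA, fewer cells in mitosis and less of these RNAs per cell cannot be told apart. Scaling by total counts moved the median of all genes to -0.12 and that of the mitotic genes to 1.18, with 35 genes past 2-fold. It also changed the split of all genes past 2-fold to 305 higher and 792 lower, where TMM gave 383 higher and 624 lower.

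Markers of granulocyte precursors and neutrophils, which marrow cultures can hold, were higher in replicate 1 as well. The 9 precursor markers summed to 52.1 TPM in replicate 1 and 4.33 TPM in replicate 2, and the secondary granule gene Ngp gave 39.2 TPM of it in replicate 1 and 2.09 TPM in replicate 2. Of these 9, only 2, Ngp and Ltf, reached 1 TPM in each library, 3 passed the count filter and all 3 were past 2-fold. The exact binomial test called Ngp and Ltf higher but not Prtn3 (adjusted p = 0.0598), which had 18 counts in replicate 1 and 12 in replicate 2. The primary granule genes Mpo, at 0.81 and 0.10 TPM, and Elane, at 1.11 and 0.04 TPM in replicates 1 and 2, were low, and Ctsg was at 0.71 TPM in replicate 1 and 0 in replicate 2. The 5 neutrophil markers summed to 307 TPM in replicate 1 and 55.5 TPM in replicate 2, nearly all of it S100a8 and S100a9, while the defining marker Ly6g was at 0.06 TPM in replicate 1 and 0 in replicate 2. The part of these cells in the ratios of the mitotic genes was not tested.

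**Figure D2:**
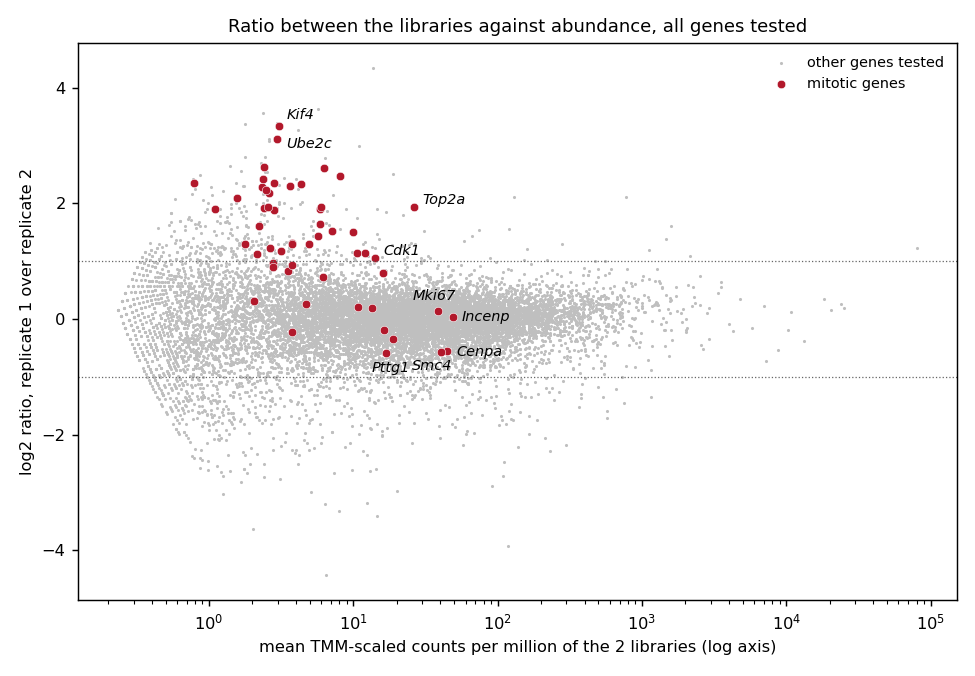
Log2 ratio of replicate 1 over replicate 2 against the mean TMM-scaled CPM (log axis; CPM is a count as a share of its library) for the 12266 genes tested, with the 55 mitotic genes in red and dotted lines at 2-fold. The mitotic genes spread from -0.58 for Pttg1 to 3.33 for Kif4, and none lies under the lower line.

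The upstream sequence of 6 genes is shown because these genes span the range of ratios, from Ube2c at 8.67-fold, Plk1 at 4.92-fold and Ccnb2 at 4.53-fold to Mki67 at 1.10-fold, Cenpa at 0.69-fold and Pttg1 at 0.67-fold. They were chosen after their values were seen. Each run is the 250 bases before the start annotated by RefSeq on GRCm38.p6, written 5′ to 3′ on the gene's strand. The stretches are chr2:164769679-164769928 (plus strand) for Ube2c, chr7:122159185-122159434 (plus) for Plk1, chr9:70421555-70421804 (minus) for Ccnb2, chr7:135716380-135716629 (minus) for Mki67, chr5:30666636-30666885 (plus) for Cenpa and chr11:43425982-43426231 (minus) for Pttg1. Capitals mark TTTGAA (the core of the cell cycle homology region, CHR) and CCAAT (the box bound by NF-Y) on either strand.
Ube2c: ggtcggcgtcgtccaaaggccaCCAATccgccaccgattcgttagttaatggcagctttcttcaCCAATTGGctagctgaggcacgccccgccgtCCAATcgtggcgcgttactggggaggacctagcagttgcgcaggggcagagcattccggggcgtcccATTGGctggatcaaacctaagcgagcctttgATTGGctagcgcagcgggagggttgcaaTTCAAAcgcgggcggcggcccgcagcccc
Plk1: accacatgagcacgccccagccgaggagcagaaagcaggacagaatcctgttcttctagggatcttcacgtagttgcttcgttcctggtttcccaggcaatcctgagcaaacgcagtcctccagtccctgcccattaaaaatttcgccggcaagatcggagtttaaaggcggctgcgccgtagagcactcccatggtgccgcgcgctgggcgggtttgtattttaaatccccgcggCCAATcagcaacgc
Ccnb2: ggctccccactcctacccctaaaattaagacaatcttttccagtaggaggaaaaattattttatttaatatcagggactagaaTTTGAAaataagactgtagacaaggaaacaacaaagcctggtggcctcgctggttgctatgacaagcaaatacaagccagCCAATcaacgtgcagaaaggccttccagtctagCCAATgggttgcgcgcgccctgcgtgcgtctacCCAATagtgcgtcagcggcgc
Mki67: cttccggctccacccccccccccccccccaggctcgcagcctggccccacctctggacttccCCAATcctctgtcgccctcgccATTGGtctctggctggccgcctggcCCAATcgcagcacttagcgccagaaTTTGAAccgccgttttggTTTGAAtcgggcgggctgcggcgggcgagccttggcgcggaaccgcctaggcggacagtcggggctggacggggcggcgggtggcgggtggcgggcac
Cenpa: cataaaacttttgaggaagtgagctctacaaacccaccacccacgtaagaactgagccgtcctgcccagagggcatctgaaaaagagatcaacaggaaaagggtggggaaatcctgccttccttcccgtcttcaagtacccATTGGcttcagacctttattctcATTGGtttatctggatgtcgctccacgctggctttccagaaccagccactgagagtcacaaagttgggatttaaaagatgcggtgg
Pttg1: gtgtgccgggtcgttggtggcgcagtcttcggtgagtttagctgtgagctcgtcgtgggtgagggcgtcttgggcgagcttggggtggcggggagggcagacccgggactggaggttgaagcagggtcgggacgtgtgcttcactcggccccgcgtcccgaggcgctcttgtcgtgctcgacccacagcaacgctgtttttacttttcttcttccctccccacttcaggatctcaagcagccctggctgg

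The Ube2c run holds 6 CCAAT boxes, of which 2 overlap on opposite strands in CCAATTGG, and, at position -29 from the start, a CHR core on the reverse strand. The Ccnb2 run has 3 CCAAT boxes and a CHR core at position -167, and the Mki67 run has 2 CHR cores and 3 boxes. The Pttg1 run has neither motif, but it lies wholly inside the gene as annotated in M21 (chr11:43420250-43426251, minus strand). Bases before that annotated start of Pttg1 were not searched. CHR cores also lie after the start, and so outside the printed bases, at position 5 in Ccnb2, 17 in Cenpa and 31 in Plk1.

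In windows of 250 bases before to 50 after the start, TTTGAA on either strand was found in 34 of the 47 mitotic genes with a RefSeq window (72.3%), against 20.2% of 27025 genes. CCAAT on either strand was found in 34 of 47 (72.3%), against 41.1%, and both motifs in 28 of 47 (59.6%), against 7.97%. The E2F sites TTTCCCGC or TTTGGCGC on either strand, neither of which contains TTTGAA or CCAAT, were found in 3 of 47 (6.38%), against 1.798%. From 100 bases before the start onward, the CHR core was in 32 of 47 (68.1%), against 9.23% of all genes. By ratio between the libraries, the CHR core was in 23 of 31 genes past 2-fold (74.2%) and in 11 of 16 not past it (68.8%). CCAAT was in 22 of 31 (71.0%) and 12 of 16 (75.0%). A match is a string of letters and shows no binding.

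The cyclins and the kinase they activate were all higher in replicate 1. Cdk1 had 49.6 TPM in replicate 1 and 22.2 TPM in replicate 2, 2.07-fold (95% interval 1.84 to 2.33, counting error only), which was under 2-fold with total-count scaling and with protein-coding transcripts only. Ccnb1 and Ccnb2, the B-type cyclins that drive entry into mitosis, had 5.79 and 4.90 TPM in replicate 1, against 1.97 and 1.16 TPM in replicate 2. Cyclin A2, which acts from S phase into early mitosis, had the largest ratio among the cyclins: Ccna2 had 5.85 TPM in replicate 1 and 1.00 TPM in replicate 2, 6.13-fold (4.89 to 7.76). The kinase thus stood several times above the cyclins in both libraries, on a scale of TPM.

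Its small binding subunits had smaller ratios. Cks1b had 11.2 TPM in replicate 1 and 6.96 TPM in replicate 2, 1.77-fold, and Cks2 had 7.66 TPM in replicate 1 and 6.87 TPM in replicate 2, which the binomial test did not call (adjusted p = 0.20). The phosphatase Cdc25b went the other way, with 8.87 TPM in replicate 1 and 12.3 TPM in replicate 2, 0.79-fold, while Cdc25c was at 0.89 TPM in replicate 1 and 0.17 TPM in replicate 2. Foxm1, the transcription factor of the late cell cycle genes, had 1.86 TPM in replicate 1 and 1.02 TPM in replicate 2, 2.50-fold in counts. Of the 8 genes tested in this group, 5 were past 2-fold.

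All 4 further mitotic kinases were past 2-fold. Plk1, which matures centrosomes and triggers mitotic entry, had 4.51 TPM in replicate 1 and 0.97 TPM in replicate 2, 4.92-fold (3.72 to 6.58). Nek2, which splits centrosomes, was at 1.89 TPM in replicate 1 and 0.41 TPM in replicate 2, 4.85-fold. The centrosomal and spindle kinase Aurka, at 4.92 TPM in replicate 1 and 2.12 TPM in replicate 2, and Melk, at 2.04 TPM in replicate 1 and 0.57 TPM in replicate 2, were 2.46-fold and 3.78-fold higher in replicate 1.

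The 4 members of the chromosomal passenger complex, which corrects faulty attachments and later guides cytokinesis, split into a pair past 2-fold and a pair that was not called. Birc5 (survivin) had 8.34 TPM in replicate 1 and 1.61 TPM in replicate 2, 5.36-fold (3.76 to 7.82), and Cdca8 (borealin) had 8.82 TPM in replicate 1 and 3.71 TPM in replicate 2, 2.69-fold. The catalytic subunit Aurkb had 4.85 TPM in replicate 1 and 4.27 TPM in replicate 2, 1.19-fold (0.98 to 1.45, adjusted p = 0.11, exact binomial test). The scaffold Incenp had 33.3 TPM in replicate 1 and 29.3 TPM in replicate 2, 1.02-fold (0.96 to 1.09), a ratio that fell under 1 with total-count scaling. Subunits of the same complex thus had ratios from 1.02 to 5.36.

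The spindle checkpoint showed the same kind of split. The kinase Bub1 had 1.70 TPM in replicate 1 and 0.76 TPM in replicate 2, its partner Bub1b had 4.49 TPM in replicate 1 and 1.65 TPM in replicate 2, and the kinase Ttk (MPS1) had 0.98 TPM in replicate 1 and 0.27 TPM in replicate 2. These were 2.35-fold, 2.87-fold and 3.75-fold higher in replicate 1. Mad2l1, whose protein binds and inhibits CDC20, was the most abundant of the group and nearly level, at 11.4 TPM in replicate 1 and 9.35 TPM in replicate 2, 1.16-fold (1.02 to 1.32).

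At the kinetochore, Cenpa stood apart from the other 7 genes. This histone H3 variant, which marks the centromere, had 54.8 TPM in replicate 1 and 74.4 TPM in replicate 2, 64.6 ± 13.8 (SD, n = 2). That is the highest mean of all 56 genes with all transcripts counted. In protein-coding transcripts alone Cenpa had 21.7 TPM in replicate 1 and 26.7 TPM in replicate 2. There it was below Pttg1, at 42.0 and 69.4 TPM, and Incenp, at 33.0 and 28.4 TPM in replicates 1 and 2. The count ratio of Cenpa was 0.69-fold (0.64 to 0.73). The 4 subunits of the microtubule-binding NDC80 complex were low: Ndc80 had 2.78 TPM in replicate 1 and 1.52 TPM in replicate 2, Nuf2 had 3.47 TPM in replicate 1 and 1.66 TPM in replicate 2, Spc24 had 2.70 TPM in replicate 1 and 1.22 TPM in replicate 2, and Spc25 had 4.91 TPM in replicate 1 and 2.57 TPM in replicate 2. In counts, Ndc80, Spc25 and Nuf2 were close together, at 1.91-fold, 1.96-fold and 2.26-fold, while Spc24 was at 5.11-fold on 48 counts in replicate 1 and 14 in replicate 2 (interval 2.77 to 10.03). The scaffold Knl1, the motor Cenpe and the large coiled-coil protein gene Cenpf had 0.63, 1.46 and 0.55 TPM in replicate 1, against 0.28, 0.92 and 0.12 TPM in replicate 2. Cenpf was past 4-fold, Knl1 was past 2-fold and Cenpe was 1.66-fold higher in replicate 1.

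All 7 spindle motor and microtubule genes were past 2-fold in the gene table, though Hmmr was not with the second transcript table. Kif2c, which depolymerises microtubules at kinetochores, had 2.33 TPM in replicate 1 and 0.40 TPM in replicate 2, 6.21-fold (4.29 to 9.20). Its relative Kif18b had 1.20 TPM in replicate 1 and 0.30 TPM in replicate 2, and the bipolar spindle motor Kif11 had 2.23 TPM in replicate 1 and 0.96 TPM in replicate 2. Tpx2, which activates Aurora A on the spindle, was the most abundant of the group, with 7.0 TPM in replicate 1 and 3.0 TPM in replicate 2, 2.20-fold. Kif15, Nusap1 and Hmmr had ratios from 2.47-fold to 5.13-fold in counts. Kif15, at 2.47-fold in counts, was closer to level in TPM, at 1.25 in replicate 1 and 1.01 in replicate 2. Hmmr depended on the quantification in both level and ratio. Its log2 ratio was 2.36 with the gene table and 0.49, under 2-fold, with the second transcript table. The second table gave it 2.61 TPM in replicate 1 and 2.19 TPM in replicate 2, where the gene table gave 1.90 TPM in replicate 1 and 0.39 TPM in replicate 2.

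The largest ratio of all was that of Kif4, the chromokinesin of the central spindle (chrX:100625737-100727214, mm10). It had 2.21 TPM in replicate 1 and 0.29 TPM in replicate 2, or 203 and 30.3 counts in replicates 1 and 2, 10.1-fold (6.85 to 15.3). Prc1, the microtubule bundler that recruits it, followed with 7.93 TPM in replicate 1 and 1.74 TPM in replicate 2, 5.53-fold. Anln and Kif20a, which act in furrow ingression and at the midzone, were at 3.82-fold and 3.76-fold.

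The centralspindlin pair behaved otherwise. The motor Kif23 had 12.4 TPM in replicate 1 and 17.2 TPM in replicate 2, 0.88-fold (0.79 to 0.97), and Racgap1, its GTPase-activating partner, had 12.5 TPM in replicate 1 and 7.35 TPM in replicate 2, 1.73-fold (1.55 to 1.92). The intervals of these partners do not overlap, but they cover counting error only. In protein-coding transcripts Kif23 was at 0.92-fold on the same scaling. Its call by the exact binomial test was lost with no filter and with protein-coding transcripts only. Ect2, the exchange factor that Kif23 and Racgap1 recruit, was at 1.91-fold. The motor Kif20b had 1.67 TPM in replicate 1 and 1.98 TPM in replicate 2, 0.86-fold (adjusted p = 0.25, exact binomial test), and its ratio was just above 1 when only protein-coding transcripts were counted.

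**Figure D3:**
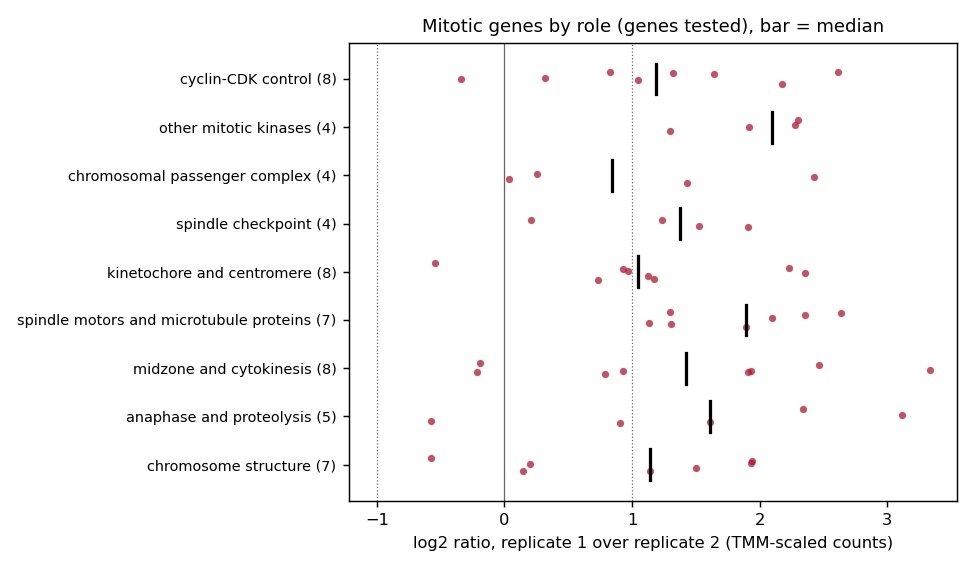
Log2 ratio of replicate 1 over replicate 2 in TMM-scaled counts for each mitotic gene tested, by role, with a black bar at the median, a solid line at equality and dotted lines at 2-fold. Group medians run from 0.84 for the chromosomal passenger complex to 2.10 for the further kinases.

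The genes of anaphase and proteolysis held the lowest ratio, that of Pttg1, and a ratio of over 8-fold, that of Ube2c. Ube2c, the ubiquitin-conjugating enzyme of the APC/C, had 10.9 TPM in replicate 1 and 1.37 TPM in replicate 2, 8.67-fold (5.97 to 13.0). Pttg1, securin, the inhibitor of separase that the APC/C destroys, had 42.3 TPM in replicate 1 and 70.4 TPM in replicate 2, 0.67-fold (0.60 to 0.75). The APC/C activator Cdc20 had 3.35 TPM in replicate 1 and 1.11 TPM in replicate 2, 3.06-fold, and Cdca3 had 7.26 TPM in replicate 1 and 1.65 TPM in replicate 2, 5.07-fold. Separase, Espl1, was 1.88-fold higher in replicate 1 in counts, with 131 counts in replicate 1 and 104 in replicate 2. Its TPM, at 3.40 in replicate 1 and 0.46 in replicate 2, differ more, because 2.15 TPM in replicate 1 rest on 3.43 counts given to a retained-intron transcript of 296 bases.

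Among chromosome structure genes, Top2a, the topoisomerase that untangles sister chromatids, had 15.8 TPM in replicate 1 and 4.39 TPM in replicate 2, 3.83-fold (3.48 to 4.22). Mki67, the source of the Ki-67 proliferation antigen, was nearly level, at 5.97 TPM in replicate 1 and 5.68 TPM in replicate 2, 1.10-fold (1.03 to 1.18). The condensin I complex was uneven. Its own subunits Ncapg, Ncapd2 and Ncaph were at 3.84-fold, 2.84-fold and 2.20-fold, with 1.78, 6.84 and 10.6 TPM in replicate 1, against 0.47, 2.84 and 5.38 TPM in replicate 2. The SMC ATPases, which condensin I shares with condensin II, were not: Smc2 had 4.11 TPM in replicate 1 and 3.78 TPM in replicate 2, 1.15-fold, and Smc4 had 12.2 TPM in replicate 1 and 21.9 TPM in replicate 2, 0.67-fold (0.63 to 0.72).

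The genes past 2-fold were the less abundant ones on the median. The 36 genes past 2-fold had a median level of 2.44 TPM and summed to 206 TPM in replicate 1 and 70.9 TPM in replicate 2. The 19 tested genes not past 2-fold had a median of 7.26 TPM and summed to 238 TPM in replicate 1 and 278 TPM in replicate 2. The summed level of all 56 genes was thus 445 TPM in replicate 1 and 349 TPM in replicate 2, only 1.27-fold apart. Spearman's rho between the log2 ratio and the mean level was -0.47 over 55 genes of the same 2 libraries, given as a description.

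Part of the most abundant signal lay in transcripts not annotated as protein-coding. Protein-coding transcripts made up 80.2% of the summed level in replicate 1 and 75.2% in replicate 2, against 91.8% and 91.2% over all protein-coding genes in replicates 1 and 2. Retained-intron transcripts took 9.39% in replicate 1 and 9.67% in replicate 2, and transcripts annotated for nonsense-mediated decay took 7.85% in replicate 1 and 12.3% in replicate 2. The leading transcript was the same in both libraries for 46 of the 56 genes. It was a transcript outside the coding class for 3 genes in replicate 1 (Cdk1, Cenpa and Espl1) and for 5 in replicate 2 (Cdk1, Cenpa, Kif15, Kif20b and Kif23).

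For Cdk1, the retained-intron transcript Cdk1-204 of 475 bases had 26.4 TPM in replicate 1 and 10.1 TPM in replicate 2, and the coding transcripts together had 23.2 TPM in replicate 1 and 11.9 TPM in replicate 2. Both classes were higher in replicate 1. For Cenpa, the decay-class transcript Cenpa-202 had 30.6 TPM in replicate 1 and 34.6 TPM in replicate 2, and the coding Cenpa-205 had 21.7 TPM in replicate 1 and 26.7 TPM in replicate 2. Its retained-intron transcripts held 65.4 counts in replicate 1 and 800 in replicate 2, and after TMM scaling were 8.20-fold higher in replicate 2 (here replicate 2 over replicate 1). Without them the Cenpa ratio was 0.90-fold, against 0.69-fold with them. Pttg1 shows no such split, with 489 coding counts in replicate 1 and 1088 in replicate 2, 0.67-fold, nor does Smc4, whose coding transcripts were at 0.69-fold. For Ncaph, at 2.20-fold as a gene, the coding Ncaph-201 held 498 counts in replicate 1 and 218 in replicate 2. The decay-class Ncaph-205 held 6.37 counts in replicate 1 and 109 in replicate 2.

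**Figure D4:**
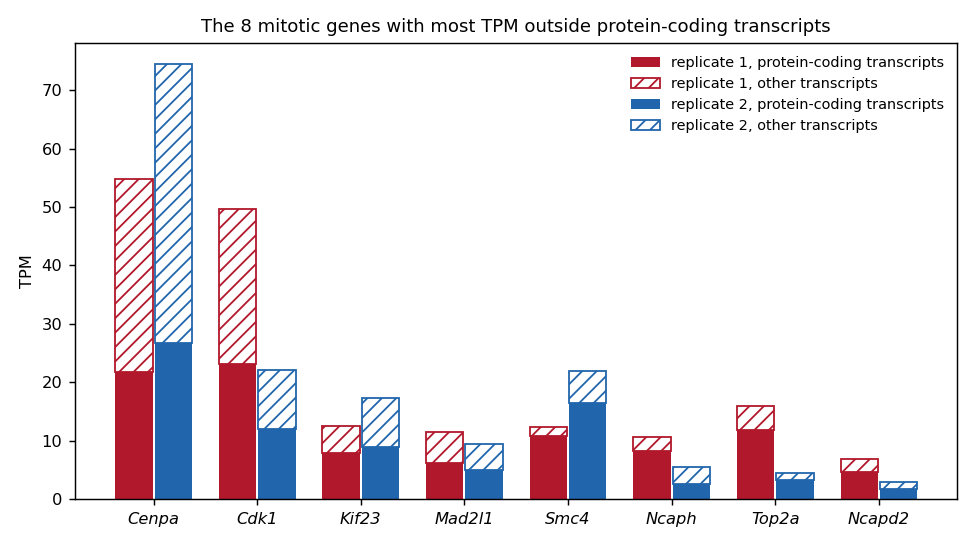
TPM in protein-coding transcripts (filled) and in other transcripts (hatched) for the 8 mitotic genes with most TPM outside the coding class, with replicate 1 on the left and replicate 2 on the right of each pair. Cenpa and Cdk1 hold about as much or more outside the coding class as in it.

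Neighbouring genes share exon bases with 16 of the 56 genes, and since the labels do not state whether the libraries kept strand, reads there may belong to either gene. Kif20a shares 29.3% of its exon bases with Cdc23, Ube2c 22.8% with Tnnc2, Kif4 15.1% with Pdzd11 and Ccna2 12.5% with Exosc9. Tnnc2 had 0 counts in both libraries, while Cdc23 had 10.6 TPM in replicate 1 and 10.8 TPM in replicate 2. Of the 40 tested genes with no such overlap, 22 were past 2-fold (55.0%), against 65.5% of all 55 and 3.12% of all genes tested. The share past 2-fold was thus higher among the mitotic genes that share exon bases. Reads could also be split with annotated copies, of which Ccnb2-ps had 3 counts in replicate 1 and 35 in replicate 2, and Ccnb1-ps, Cks1brt and Kif4-ps had at most 1.15.

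Other lists of the cell division pathway had ratios of their own. Over all genes tested, 3.12% were past 2-fold higher in replicate 1 and 5.09% past 2-fold lower. Of 27 DNA replication genes, 14 were past 2-fold higher in replicate 1 and 0 lower, with a median log2 ratio of 1.11. The sliding clamp Pcna was at 376 TPM in replicate 1 and 236 TPM in replicate 2, the helicase subunit Mcm6 at 37.7 TPM in replicate 1 and 23.2 TPM in replicate 2, and Rrm2, the regulated subunit of ribonucleotide reductase, at 9.22 TPM in replicate 1 and 1.67 TPM in replicate 2. Of 19 tested other mitotic genes, 10 were past 2-fold higher and 0 lower, with a median of 1.39, among them the spindle protein gene Ckap2 and the motor Kif14, with log2 ratios of 2.31 and 2.30.

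Of 5 tested inhibitors of cyclin-dependent kinases, 0 were past 2-fold higher and 2 were past 2-fold lower in replicate 1, with a median log2 ratio of -0.86. The exact binomial test called 3 lower (Cdkn1a, Cdkn1b and Cdkn1c) and 1 higher, Cdkn2c, at 1.14-fold, and did not call Cdkn2d. That test called 32.2% of all genes lower and 31.3% higher. Cdkn1a (p21), which halts the cycle, had 272 TPM in replicate 1 and 667 TPM in replicate 2, and Cdkn1c (p57) had 33.0 TPM in replicate 1 and 85.3 TPM in replicate 2. Among 9 G1 cyclins and kinases, 2 were past 2-fold higher, Ccnd1 with 46.4 TPM in replicate 1 and 16.8 TPM in replicate 2, and Ccne2 with 2.11 TPM in replicate 1 and 0.69 TPM in replicate 2. Cdk4, of the highest level in that list, had 74.4 TPM in replicate 1 and 75.4 TPM in replicate 2.

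Among the regulators that the mitotic genes answer to or act on, most genes were not past 2-fold. The exact binomial test called genes in both directions, as it did over all genes tested (31.3% higher and 32.2% lower). Past 2-fold higher were 3.12% of all genes tested. Of 19 E2F, RB and DREAM genes, 2 were past 2-fold higher and 0 lower, with a median log2 ratio of 0.02, and the binomial test called 7 higher and 7 lower. The 2 past 2-fold were E2f7, at 0.99 TPM in replicate 1 and 0.23 TPM in replicate 2, and Mybl2 (B-MYB), at 1.10 TPM in replicate 1 and 0.58 TPM in replicate 2. In counts E2f7 was at 6.24-fold and Mybl2 at 5.13-fold. Mybl2 had 93.0 counts in replicate 1 and 27 in replicate 2, and its TPM differ less than its scaled counts. Of 16 genes of the APC/C and its regulators, only the inhibitor Fbxo5 was past 2-fold, at 1.57 TPM in replicate 1 and 0.63 TPM in replicate 2. The median was 0.09, with 7 genes called higher and 5 lower. Of 12 cohesin genes, the protectors Sgo1 and Cdca5 were past 2-fold higher, and the median was -0.20. The binomial test called 4 cohesin genes higher and 7 lower in replicate 1. Among those called lower were Stag2, a subunit of the cohesin complex, at 24.0 TPM in replicate 1 and 38.3 TPM in replicate 2, and the loader Nipbl, at 11.0 TPM in replicate 1 and 19.6 TPM in replicate 2.

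Inner kinetochore and checkpoint lists had median log2 ratios between those of the APC/C list (0.09) and the DNA replication list (1.11). Over all genes tested, 3.12% were past 2-fold higher in replicate 1 and 5.09% past 2-fold lower. Of 14 tested genes of the constitutive centromere network, 4 were past 2-fold higher (Cenpk, Cenpn, Cenpp and Cenps) and 0 lower, with a median log2 ratio of 0.62. None of the 4 Mis12 complex genes was past 2-fold in either direction. Of 7 other checkpoint genes, Kntc1, at 1.5 TPM in replicate 1 and 0.24 TPM in replicate 2, and Zwilch, at 3.03 TPM in replicate 1 and 1.32 TPM in replicate 2, were past 2-fold higher. The condensin II subunit Ncapg2 was past 2-fold lower, at 23.2 TPM in replicate 1 and 64.0 TPM in replicate 2, while Ncaph2 and Ncapd3 were not past 2-fold.

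**Figure D5:**
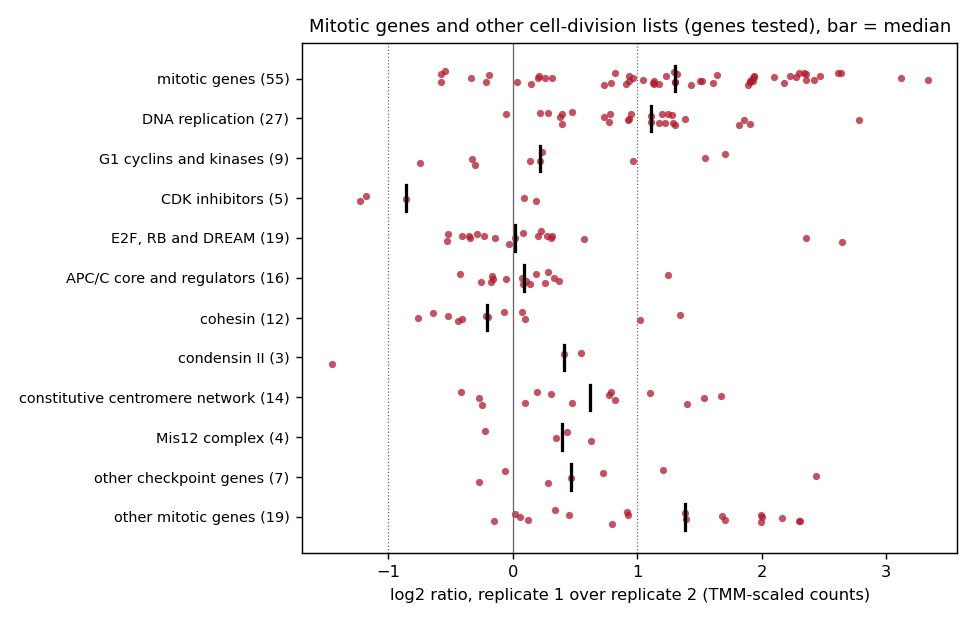
Log2 ratio of replicate 1 over replicate 2 in TMM-scaled counts for the mitotic genes and 11 other lists of the cell division pathway, with a point for each gene tested (number in brackets), a black bar at the median and dotted lines at 2-fold. The mitotic genes, the DNA replication genes and the other mitotic genes have medians above 1, and the inhibitors of cyclin-dependent kinases have a median of -0.86.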

How the data were processed

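PolyA RNA-seq of 2 libraries of 1 group was analysed. Per the file headers, the deposited gene and transcript tables gave expected counts, not normalized, TPM, a posterior mean TPM, the other deposited values that bound a credibility interval of TPM, at a level not stated, and the percent of a gene's TPM in each transcript. A second deposited transcript table gave estimated counts and TPM. Assembly mm10 and annotation M21 are named in the deposited text files. Which aligner and counting tool were run is not given in the sources used here. Entries naming no gene (0.0891% of counts in replicate 1, 0.0698% in replicate 2) were left out.

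Rounded counts were scaled by TMM after filterByExpr in edgeR 4.0.16 (R 4.3.3), and DESeq2 1.42.0 size factors were an alternative. For each gene an exact two-sided binomial test, with Benjamini-Hochberg adjustment over 12266 genes at 0.05, asked whether the reads of the libraries differ. It covers counting error only. The simulated data on which it was tested held set changes and counting error, with no other spread between libraries. Promoter windows came from RefSeq (GRCm38.p6). The genes and lists were chosen with earlier results of these data known. All 56 genes were followed, and for other lists the 2 genes of highest level and those past 2-fold among the 4 of largest ratio could be named. Stag2, Nipbl, Cdkn1b, Cdkn2c, Cdkn2d, Prtn3, Kit and Flt3 were named after their values were seen. The labels give biological replicates with separate biosample records but do not mention separate cultures. The spread between the libraries may therefore be technical, at least in part.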

Additional observations from a re-analysis of the deposited data

How the results depend on the processing

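No paired analysis was possible because the series has a single group. At a limit of 5 TPM, 13 genes were detected in both libraries. The median log2 ratio was 1.18 with total-count scaling, 1.23 with the second transcript table, 1.39 with protein-coding transcripts only (an alternative chosen after seeing the data), 1.22 as a ratio of TPM and 0.75 as a ratio of TPM + 1, where 21 genes were past 2-fold. Without genes that share exon bases, also chosen after seeing the data, 22 of 40 were past 2-fold and the median was 1.13, on fewer genes by construction. The log2 ratio of Incenp, 0.03 with TMM, was -0.083 with total-count scaling, and that of Kif20b, -0.22, was 0.016 with protein-coding transcripts only. The cause was not tested. With either library alone, detected genes ranged from 39 to 52, the median level from 1.565 to 4.50 TPM and the share of counts from 0.0407% to 0.0547%. With DESeq2 size factors and with the second table, all 55 log2 ratios kept their direction and their call by the exact binomial test. With the second table Hmmr was no longer past 2-fold (log2 ratio 0.49, against 2.36), while Spc25 (1.09) and Ect2 (1.06) were. Cdk1 was under 2-fold with total-count scaling (0.93) and with protein-coding transcripts only (0.91), where Spc25 was past it (1.02). With total-count scaling, 3 further genes (Mad2l1, Mki67 and Smc2) lost the call of the exact binomial test, as did Kif23 with no filter, and Mad2l1, Kif23 and Smc2 with protein-coding transcripts only. With 2 libraries, a difference between them cannot be set against the spread within a state, and genes under 50 counts have wide intervals.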

Other observations

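Markers of other cell types that marrow cultures can hold were low. The 4 monocyte markers summed to 34.9 TPM in replicate 1 and 31.8 TPM in replicate 2, but they were not level one by one. In scaled counts 3 of them were higher in replicate 1, with Ly6c2 at 2.10-fold, and 1, Plac8, was lower, at 0.55-fold. The 5 stem and progenitor markers summed to 1.76 TPM in replicate 1 and 2.88 TPM in replicate 2. Of these 5, 2 passed the count filter and went opposite ways. Kit was at 0.18-fold, on 45 counts in replicate 1 and 382 in replicate 2, and Flt3 at 3.59-fold, on 53 counts in replicate 1 and 22 in replicate 2. The 7 erythroid precursor markers summed to 9.23 TPM in replicate 1 and 4.29 TPM in replicate 2, with 4 of them at 0 in both libraries and 1, the erythropoietin receptor gene Epor, at 1 TPM or more in both. Markers of B cell precursors summed to 0.51 TPM in replicate 1 and 0.72 TPM in replicate 2, those of mast cells and basophils to 0.41 TPM in replicate 1 and 0 in replicate 2, those of T and NK cells to 0.36 TPM in replicate 1 and 0 in replicate 2, and those of stromal cells to 0.75 TPM in replicate 1 and 0.78 TPM in replicate 2.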
